A study of Rattus norvegicus with 12 samples.

Results

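The genes described here encode the extracellular matrix of the anterior pituitary gland and the enzymes that cut, cross-link or protect it. They were 91 genes of 14217 genes read by a probe set with a single gene symbol on the array: every collagen chain (*Col*), laminin chain (*Lama*, *Lamb*, *Lamc*), matrix metalloproteinase (*Mmp*), tissue inhibitor of metalloproteinases (*Timp*) and *Adamts* protease chosen by the form of its symbol, together with *Fn1*, *Sparc*, *Dcn*, *Lum*, *Bgn*, *Postn* and *Lox*. They were read by 128 probe sets, 29 genes by more than 1, and the brightest stood for the gene. The genes were taken by symbol and not by a cut on measured values, but this set was chosen with earlier results of these data known.

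All 12 arrays measured glands of male rats treated with diethylstilbestrol (DES), a synthetic estrogen, released from a 5 mg implant placed at 9 weeks of age. The glands were taken at 21 weeks, after 12 weeks of treatment and 4 h after an injection of BrdU at 50 mg/kg. The rats belonged to 4 congenic lines, which carry alleles of the COP strain at a locus for estrogen-induced pituitary growth on the ACI genetic background: *Ept1* on chromosome 6, *Ept2* and *Ept6* on chromosome 3 and *Ept9* on chromosome 10. Each line was represented by 3 arrays, and the labels conflict on whether all 3 are independent animals, so that the p-values may measure spread that is in part technical. No ACI, COP or sham treated array was analysed here, so each line was compared with the mean of the other 3 lines, and the 4 comparisons share arrays.

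Basement membranes are sheets of laminin and type IV collagen on which epithelial and endothelial cells rest, and in the anterior pituitary they surround the cords of hormone cells and the fenestrated capillaries between them. Fibrillar collagens, made largely by fibroblasts and pericytes, fill the space outside these sheets, where decorin and lumican bind the fibrils and lysyl oxidase cross-links them. Metalloproteinases and Adamts proteases cut matrix proteins, and the Timp proteins inhibit them.

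The tissue label was checked first. Signals, linear values that the authors scaled to a common trimmed mean on each array, ran from 41979 to 51767 for *Prl* (prolactin), from 27923 to 40693 for *Gh1* (growth hormone) and from 5010 to 6166 for *Pou1f1*, a transcription factor of these hormone cells. *Avp*, *Oxt* and *Gfap* of the posterior lobe were dim. *Pomc*, of the corticotrophs of the anterior lobe, was also dim at 10.6 to 151.9, and why was not tested. Correlations between arrays lay between 0.959 and 0.970. The array with most extreme values, Ept2 replicate 1, was the highest of 12 for 9 and the lowest for 10 of the matrix genes that were tested.

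Of the 91 matrix genes, 52 passed the filter on low values and 39 did not. The filter was set on the mean of log2(signal + 16) over the 12 arrays, which corresponds to a signal of 65.2, and a gene below it counted as dim and was not tested. The 52 tested were 9 of 11 fibrillar collagens, 5 of 8 basement membrane collagens, 7 of 22 other collagens, 8 of 10 laminins, 8 of 17 *Mmp* genes, 3 of 4 *Timp* genes, 6 of 12 *Adamts* genes and 6 of the 7 others. The dim genes included *Mmp9* (1.6 to 36.0), a gelatinase of leukocytes, *Postn* (4.9 to 81.5), which encodes periostin of activated fibroblasts, *Col2a1* of cartilage, *Timp4*, and the collagenase and stromelysin genes *Mmp13* and *Mmp3*. On 19 of the 39 no array reached 65.2.

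Few matrix genes were called different in any line. When each line was tested against the mean of the others with limma, and p-values were adjusted over all 18607 probe sets tested, 3 of the 52 genes were called at an adjusted p under 0.05, all higher in Ept2: *Lama5*, *Mmp24* and *Timp2*. In Ept2, 0.801% of all probe sets tested were called (0.339% higher and 0.462% lower). No matrix gene was called in Ept1, Ept6 or Ept9, where 0.193%, 0.161% and 0.683% of probe sets were called, and none in the test among the 4 lines, where 0.994% were. The 3 of 52 called in Ept2 were thus a larger share than that of all probe sets. At an unadjusted p under 0.05 there were 14 of the 52 matrix genes among the lines, beside 14.1% of all probe sets. In Ept1 there were 5, all lower, where 7.49% of probe sets passed (3.54% higher, 3.95% lower). In Ept2 there were 13, of which 7 were higher and 6 lower, where 14.4% passed (7.17% higher, 7.21% lower). In Ept6 there were 10, of which 6 were higher and 4 lower, where 10.7% passed (5.3% higher, 5.35% lower). In Ept9 there were 13, of which 7 were higher and 6 lower, where 11% passed (4.35% higher, 6.67% lower). Among the lines and in each line, the share of the 52 that passed unadjusted was above that of all probe sets. Whether that excess is more than a set of this size would show was not tested. Because the glands were measured whole, fewer cells of a type and less RNA per cell cannot be told apart.

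**Figure D1:**
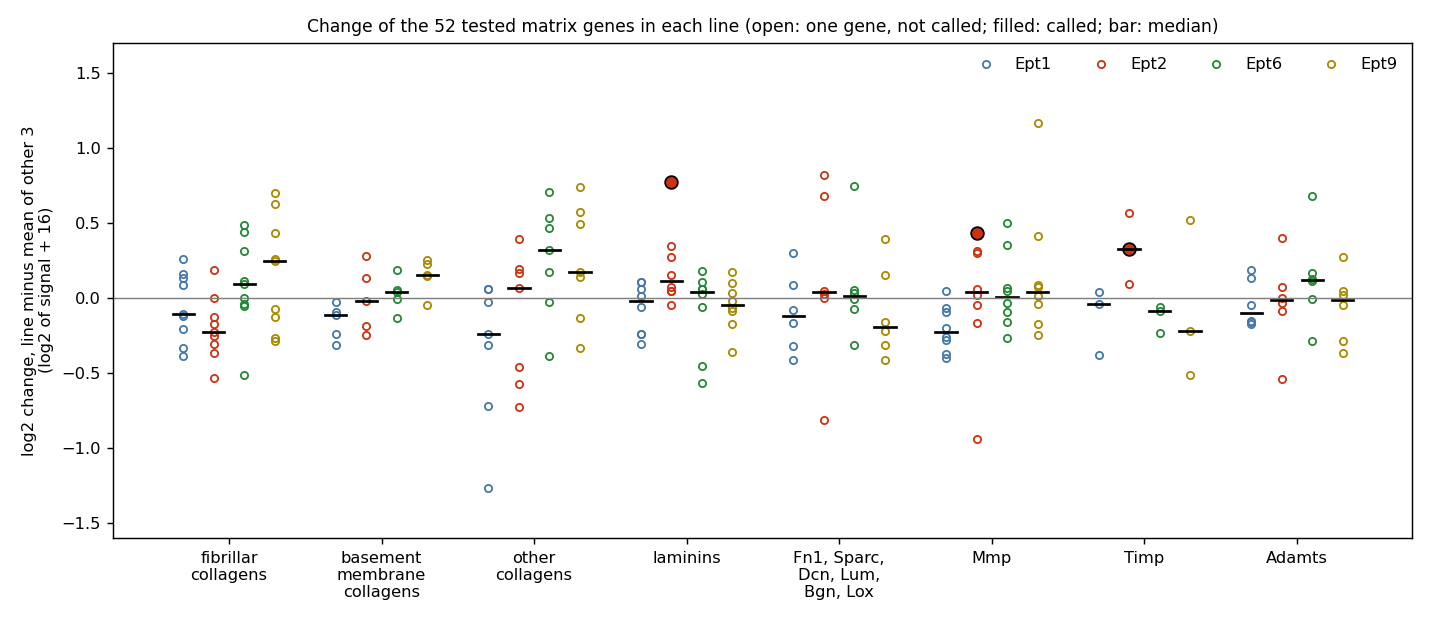
Log2 change (line minus mean of the other 3, on log2 of signal + 16) of each of the 52 tested matrix genes, by family along the horizontal axis and by line in colour. Open circles are genes that were not called, filled circles the called genes and bars the median of a family in a line. The 3 filled circles are all of Ept2: *Lama5* at 0.77 among the laminins, *Mmp24* at 0.43 and *Timp2* at 0.32.

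In median change the 52 genes lay close to all tested genes in Ept2, Ept6 and Ept9, where rises and falls offset each other. Their median log2 change was 0.03 in Ept2, 0.04 in Ept6 and 0.03 in Ept9, where the medians over all 10615 genes tested were 0.02, -0.01 and -0.00. In Ept1 the median was -0.11, with 36 of 52 changes below 0, beside a median of 0.00 over all genes, and none of these was called. All 6 tested markers of fibroblasts and mural cells, which make much of the matrix, were also below 0 in Ept1 (median -0.52, none called), and their part in the matrix genes was not tested.

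The windows of 250 bases before the annotated start of the 3 called genes are given here because these genes were the only matrix genes called in any line. They are RefSeq sequences of the GRCr8 assembly, read 5′ to 3′ on the gene's strand, at chr3:187695975-187696224 (minus strand) for *Lama5*, chr3:164738976-164739225 (plus strand) for *Mmp24* and chr10:104089215-104089464 (minus strand) for *Timp2*. Capitals mark GGGCGG, the GC box bound by Sp family factors, on either strand (CCGCCC on the other).
Lama5: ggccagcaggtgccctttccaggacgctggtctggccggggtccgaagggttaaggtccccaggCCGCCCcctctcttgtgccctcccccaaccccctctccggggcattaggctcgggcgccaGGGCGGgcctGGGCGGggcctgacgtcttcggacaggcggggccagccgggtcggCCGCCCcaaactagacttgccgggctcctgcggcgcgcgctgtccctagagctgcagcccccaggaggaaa
Mmp24: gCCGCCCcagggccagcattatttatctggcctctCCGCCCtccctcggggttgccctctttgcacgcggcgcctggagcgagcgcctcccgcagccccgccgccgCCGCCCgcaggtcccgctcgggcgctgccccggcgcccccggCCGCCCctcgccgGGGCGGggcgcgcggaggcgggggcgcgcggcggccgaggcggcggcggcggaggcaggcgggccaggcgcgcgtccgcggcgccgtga
Timp2: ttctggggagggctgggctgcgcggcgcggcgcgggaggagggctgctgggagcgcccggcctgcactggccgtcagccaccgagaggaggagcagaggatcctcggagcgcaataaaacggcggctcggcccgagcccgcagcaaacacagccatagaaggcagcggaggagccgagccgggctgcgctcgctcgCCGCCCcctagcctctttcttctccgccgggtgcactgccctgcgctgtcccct
The GC box occurred 4 times in the *Lama5* window, 5 times in that of *Mmp24* and 1 time in that of *Timp2*. It was found in 34 of the 66 matrix genes with a RefSeq promoter entry (51.5%) and in 32.4% of all 27457 promoters of the same length. TATAAA was present in 15 of the 66 (22.7%, against 13.1% of all promoters) and CCAAT in 19 (28.8%, against 34.3%), and neither was in these 3 windows. The palindromic estrogen response element (GGTCA, any 3 bases, TGACC) was in none of the 66 and in 6 of all promoters (0.0219%). The motifs were searched on both strands, and a GC box and a CCAAT can share letters. A motif match in these windows is a description of the letters and not of a bound site.

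*Lama5* encodes the laminin alpha-5 chain, a long chain of basement membranes under mature epithelium and endothelium. Its signal was 325, 252 and 241 on the 3 Ept2 arrays, 156, 141 and 163 in Ept1, 106, 147 and 158 in Ept6, and 144, 168 and 199 in Ept9. The lowest Ept2 array thus lay above the highest of the 9 others. The mean was 272 ± 45.6 (SD, n = 3) in Ept2 and between 137 ± 27.7 and 170.3 ± 27.4 (SD, n = 3) in the other lines. On the log2 scale *Lama5* was higher in Ept2 by 0.77 ± 0.13 (SE), or 1.71-fold (limma adjusted p = 0.0336).

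*Lama5* lies on chromosome 3, as do the COP segments of both Ept2 and Ept6, but the levels of these lines were the farthest apart. The log2 difference of Ept2 minus Ept6 was 0.92, and Ept6 against the other 3 lines gave -0.46 ± 0.13 (SE, limma adjusted p = 0.268). That mean includes the high Ept2, while Ept1 minus Ept6 was 0.16 and Ept6 minus Ept9 -0.29. The boundaries of the segments were not known here, and whether *Lama5* lies inside either cannot be said. Along chromosome 3 it took place 767 of 798 tested genes. The other *Lama5* probe sets were too dim to test, and their log2 changes in Ept2 were 0.35 (signals from 31.0 to 105.5) and 0.46 (1.4 to 44.7).

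*Mmp24* encodes a membrane-anchored metalloproteinase known mainly from the nervous system. Its brightest probe set read 1617, 1414 and 1429.9 in Ept2, 1163, 1119.5 and 1087 in Ept1, 1103, 1168 and 993 in Ept6, and 1012, 1119 and 1109 in Ept9. All 3 Ept2 arrays were above the 9 others, and the mean of 1487 ± 113 (SD, n = 3) exceeded the others by 0.43 ± 0.07 (SE) on the log2 scale, or 1.35-fold (limma adjusted p = 0.0339). The other probe sets of *Mmp24* did not show this. In Ept2 the log2 change was 0.18 (adjusted p = 0.611, signals from 544 to 955) for the second and -0.63 (adjusted p = 0.149, 78.1 to 268) for the third. With the mean of the probe sets in place of the brightest, the change in Ept2 was -0.01 (limma adjusted p = 0.983). *Mmp24* also lies on chromosome 3, at place 633 of the 798 tested genes, and the log2 difference of Ept2 minus Ept6 was 0.45.

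*Timp2* encodes a secreted inhibitor that also takes part in the activation of pro-MMP2 by membrane-anchored metalloproteinases. Its signal was 7971, 8238 and 8139 in Ept2, 6746, 6788 and 6599 in Ept1, 6813, 6977 and 6197 in Ept6, and 5877, 6228 and 6261 in Ept9. The 3 Ept2 arrays lay close together (8116 ± 135, SD, n = 3) and above the 9 others. The difference was 0.32 ± 0.06 (SE) on the log2 scale, or 1.25-fold (limma adjusted p = 0.0461). A dim second probe set gave 0.23 (limma adjusted p = 0.703, signals from 51.3 to 136.5). *Timp2* lies on chromosome 10, where Ept9 and not Ept2 carries its segment, at place 838 of 895 tested genes. In Ept9 the log2 change of *Timp2* was -0.22 ± 0.06 (SE, limma adjusted p = 0.195), against a mean that includes the high Ept2. By pairs, the log2 difference was 0.13 for Ept1 minus Ept9, 0.12 for Ept6 minus Ept9 and 0.41 for Ept2 minus Ept9.

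**Figure D2:**
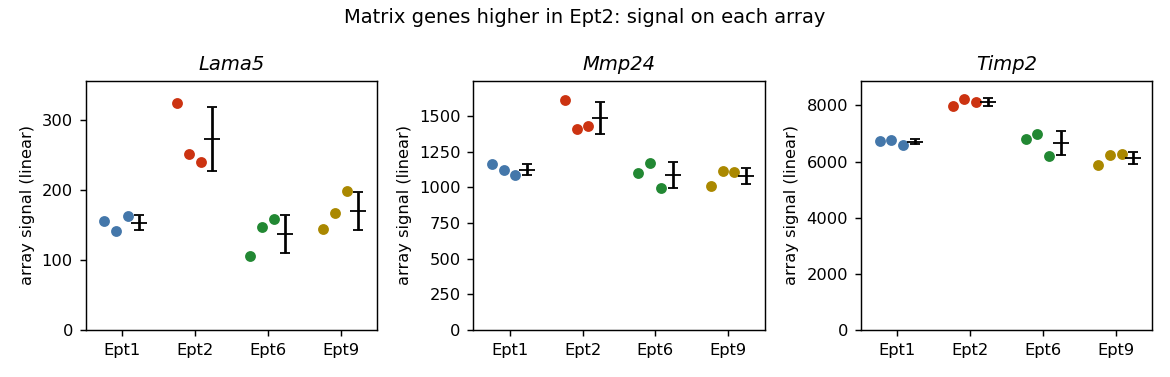
Linear array signal, as scaled by the authors, of *Lama5*, *Mmp24* and *Timp2* by line, on separate vertical scales that start at 0. Points are single arrays, and the bar beside each 3 gives the mean and SD. In all 3 genes the Ept2 arrays (241 to 325, 1414 to 1617 and 7971 to 8238) lie above every other array (at most 199, 1168 and 6977).

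**Figure D3:**
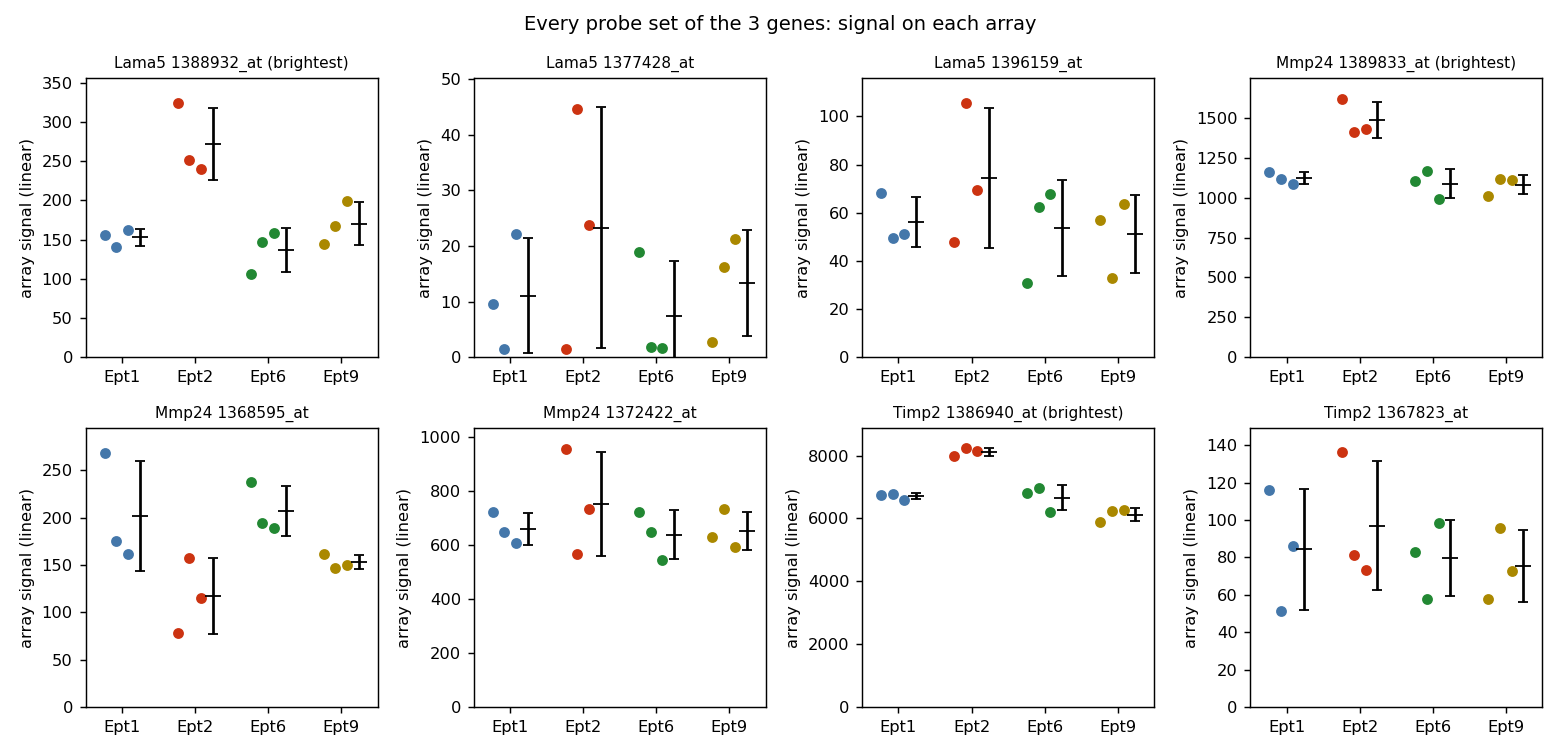
Array signal (linear) of every probe set of *Lama5*, *Mmp24* and *Timp2*, by line, with points, means and SDs as before. The Ept2 arrays stand above all others only in the brightest probe set of each gene, and the *Mmp24* probe set in the lower left corner has its lowest mean in Ept2 (117, against 153 to 207 in the other lines).

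In Ept2, 1.92% of all probe sets had 3 arrays above the 9 others, as these 3 of the 52 matrix genes did. The 3 calls were close to the threshold. With each array left out in turn, *Lama5* kept an adjusted p under 0.05 in 4 of 12 fits (without any single Ept6 array or without Ept9 replicate 3), *Mmp24* in 1 (without Ept6 replicate 2) and *Timp2* in none, although the log2 changes stayed between 0.64 and 0.85, 0.37 and 0.47, and 0.30 and 0.33. None of the 3 passed the test against each of the other 3 lines separately. The plot of the Ept2 changes under each setting shows all values.

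Other measures moved with Ept2. For *Gapdh*, the control signal from the 3′ end minus that from the 5′ end, a sign of RNA integrity, was 0.31 to 0.42 (log2) on the Ept2 arrays and 0.09 to 0.28 on the others. The same difference for beta-actin was 1.76 to 1.85 in Ept2 and 1.49 to 1.79 elsewhere, which overlap. With the *Gapdh* difference as a covariate the log2 changes were 0.89 ± 0.29, 0.37 ± 0.16 and 0.32 ± 0.13 (SE) for *Lama5*, *Mmp24* and *Timp2*, with adjusted p between 0.454 and 0.568, and no probe set at all was called in Ept2. The SEs without the covariate were 0.13, 0.07 and 0.06. Because the *Gapdh* values of Ept2 did not overlap the others, that fit can hardly separate the line from the covariate. Of the 6 measured markers of folliculostellate and stem cells, the non-hormonal cells of the lobe, all 6 had a change above 0 in Ept2 (median 0.37), 5 at an unadjusted p under 0.05 and none called. Their summed signal was 3224 to 4251 in Ept2 and 2446 to 3042 elsewhere, and none was at 0. *Aldh1a1* (0.79, limma adjusted p = 0.0809) and *S100b* (0.54, limma adjusted p = 0.0955) led them. Of 10 tested endothelial markers 7 were above 0 in Ept2, with a sum over the 11 measured of 4354 to 5038 against 3618 to 4397 elsewhere. Of 7 tested hormone cell genes 6 were above 0 (median 0.25), 5 at an unadjusted p under 0.05. The summed signal of the 8 measured was 134494 to 150539 in Ept2 and 111760 to 132534 elsewhere. Of 6 fibroblast and mural markers 2 were above 0, and of 9 leukocyte markers 2. No endothelial, hormone cell, fibroblast, mural or leukocyte marker was called in Ept2. The part of these cells in the matrix genes was not tested.

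**Figure D4:**
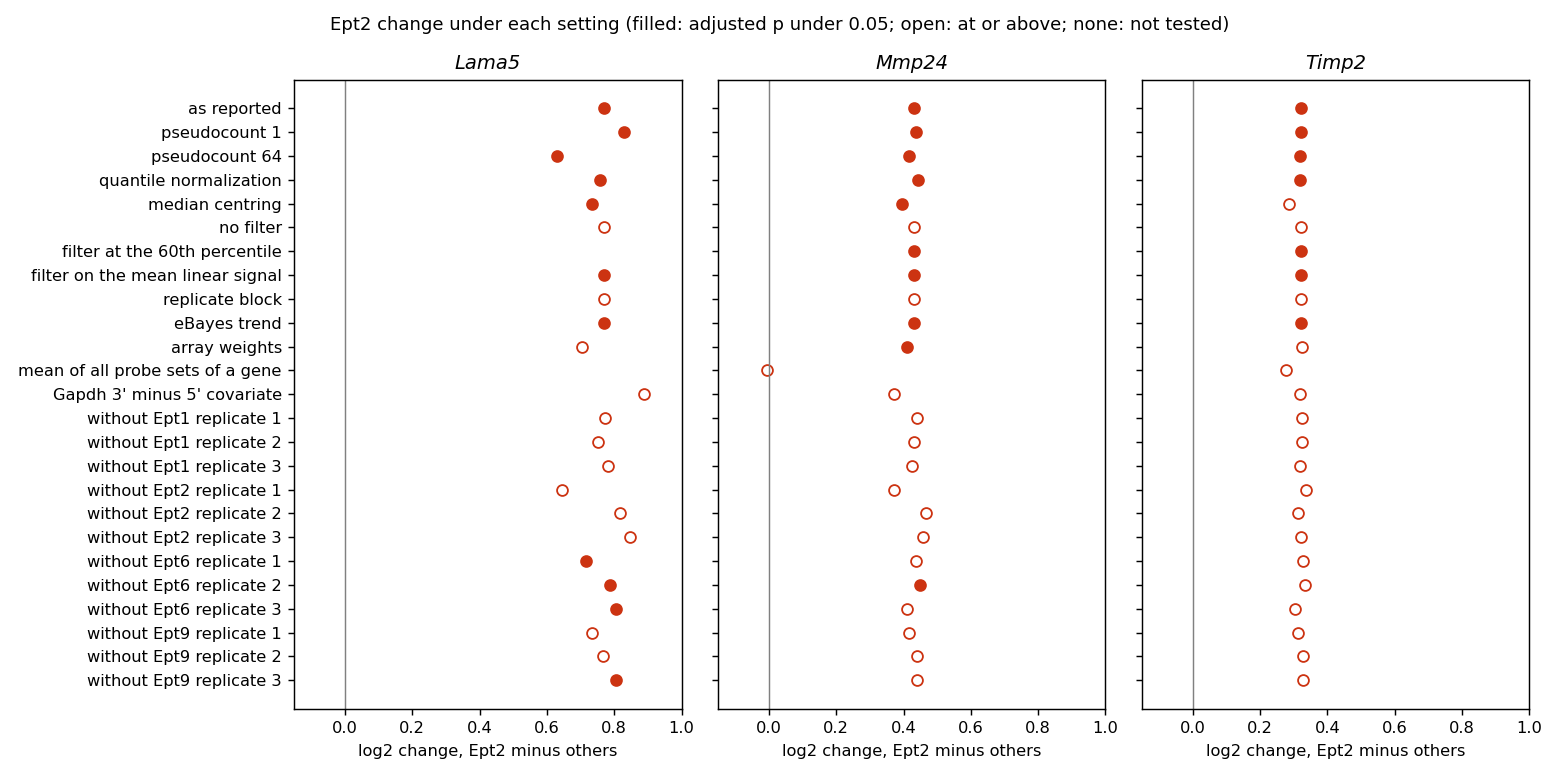
Log2 change of *Lama5*, *Mmp24* and *Timp2* in Ept2 against the other 3 lines under each setting of the analysis, 1 setting to a line. Filled circles had an adjusted p under 0.05, open circles did not, and no circle means that the gene was not tested. The changes lie between 0.63 and 0.89 for *Lama5* and between 0.28 and 0.33 for *Timp2*, and between 0.37 and 0.47 for *Mmp24* except at -0.01 with the mean of its probe sets.

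Of the other laminins, *Lama4*, a chain of vascular basement membranes, varied little over the 12 arrays (1158 to 1611), as did *Lamb2* (933.5 to 1282) and *Lamc1* (520 to 769), the shared gamma chain of most laminins. None of these 3 had an unadjusted p under 0.05 in any line. *Lamb1*, the common beta chain and the only matrix gene of chromosome 6, read 2506.5, 2231 and 2293.5 in Ept1, whose segment lies there, within the range of the others (1777 to 2785) and with no unadjusted p under 0.05. Its Ept9 arrays, at 1777, 1885 and 1836, lay below the 9 others (2097 to 2785). That difference of -0.36 ± 0.10 (SE) did not pass (limma adjusted p = 0.162). In Ept9, 1.4% of all probe sets had 3 arrays below the others. *Lama2*, the alpha chain of muscle and nerve, was dim at 20.2 to 95.9.

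The type IV collagen chains *Col4a1* and *Col4a2*, which assemble into the network of basement membranes, start head to head on chromosome 16 with 76 bases between their annotated starts. That stretch is printed since both genes share it as upstream sequence. It spans chr16:84885521-84885596 in GRCr8 (RefSeq, plus strand), with 1 GC box in capitals.
Col4a2 to Col4a1: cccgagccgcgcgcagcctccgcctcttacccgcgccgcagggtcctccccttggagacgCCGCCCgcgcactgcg
The signals ran from 221 to 447 for *Col4a1* and from 131 to 317 for *Col4a2*, and neither had an unadjusted p under 0.05 in any line. Across the 12 arrays their log2 values had r = 0.60 (permutation p = 0.0364, 0.151 when adjusted over the 5 pairs tested) and rho = 0.48 (permutation p = 0.114, adjusted 0.152). Without Ept2 replicate 2 and Ept9 replicate 1, the 2 arrays farthest from the median of *Col4a1*, r was 0.12, so that the relation rests on those arrays. With line means subtracted r was 0.55. *Col18a1*, whose cleavage releases endostatin, ranged only from 1008 to 1305. Its 3 Ept9 arrays (1176, 1176 and 1305) lay above the 9 others, by 0.15 ± 0.06 (SE, limma adjusted p = 0.422), as did 1.3% of all probe sets.

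Among the fibrillar collagens the Ept9 glands had the highest means of *Col1a2* and *Col3a1*, but neither was called. *Col1a2*, a chain of type I collagen, read 3078.5, 2979 and 3258 in Ept9, above every other array (1089 to 2718). The log2 change was 0.70 ± 0.24 (SE, limma adjusted p = 0.319), and a second probe set gave 0.64 (limma adjusted p = 0.166). *Col3a1*, which co-assembles with type I collagen in soft tissue, read 447, 384 and 277 in Ept9 and 154.5, 160.2 and 281 in Ept2, so that the lines overlapped. Its log2 changes were 0.63 ± 0.24 in Ept9 and -0.53 ± 0.24 in Ept2 (SE, limma adjusted p = 0.359 and 0.338). The signal of *Col1a1*, the partner chain of *Col1a2* and on chromosome 10, was low and uneven (12.0 to 117), with 78.8, 85.4 and 100.5 in Ept9, and it had no unadjusted p under 0.05 in any line.

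Whether fibrillar chains varied together was tested over the 12 arrays for pairs that both include *Col1a1*. Its signal was low and uneven (12.0 to 117), so a weak r cannot decide the question. *Col1a2* with *Col3a1* was not tested. *Col1a1* and *Col1a2* had r = 0.41 across the 12 arrays (permutation p = 0.186, adjusted 0.232) and rho = 0.50 (permutation p = 0.0999, adjusted 0.152), with r = 0.51 without the 2 farthest arrays and 0.44 with line means subtracted. *Col1a1* and *Col3a1* had r = 0.27 (permutation p = 0.405, adjusted 0.405) and rho = 0.20 (permutation p = 0.542, adjusted 0.542), and r was -0.26 without the 2 farthest arrays and 0.23 with line means subtracted. The laminin chains *Lamb1* and *Lamc1* had r = 0.43 (permutation p = 0.159, adjusted 0.232) and rho = 0.48 (permutation p = 0.122, adjusted 0.152). For them r was 0.45 without the 2 farthest arrays and 0.03 with line means subtracted. None of the 5 pairs passed after adjustment.

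*Col24a1*, a minor fibrillar chain, was 809, 778 and 811 in Ept6 against 481 to 672 on the 9 others. The log2 change was 0.49 ± 0.10 (SE, limma adjusted p = 0.154). In Ept6, 0.86% of all probe sets had 3 arrays above the others. *Col5a2*, a chain of the type V collagen that nucleates fibrils, was 145.6, 158 and 181 in Ept6, and 2 of these 3 values were exceeded by the highest Ept2 array (160.4). Its change there was 0.44 ± 0.13 (SE, limma adjusted p = 0.269). *Col5a1*, the partner chain on chromosome 3, read 227, 217 and 224 in Ept2, within the range of Ept6 (199.8 to 319), with a log2 change of -0.37 ± 0.14 in Ept2 (SE, limma adjusted p = 0.258) that was 0.02 when its probe sets were averaged.

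Of the 22 other collagens 7 were tested. *Col6a1*, of the microfibrils around cells, was low on 2 Ept1 arrays (26.9 and 24.5) and not on the remaining 1 (155.7), while the 9 others ran from 101.5 to 236. The change of -1.27 ± 0.40 (SE) in Ept1 did not pass (limma adjusted p = 0.444), and it did (0.0392) without Ept1 replicate 2. Its partner chain *Col6a2* read 147, 24.8 and 47.5 on the same arrays, so that replicate 2 was there the lowest of Ept1. *Col9a2*, best known from cartilage, had 2 Ept2 arrays (90.8 and 49.6) below the 9 others (96.3 to 192) and 1 (109) among them, with a log2 change of -0.73 ± 0.21 (SE, limma adjusted p = 0.153). *Col8a1*, a short-chain collagen of vessels, was 86.0, 132 and 90.3 in Ept2 and 210.1, 151 and 239.7 in Ept9. Its changes of -0.58 ± 0.19 and 0.57 ± 0.19 (SE) were not called (limma adjusted p = 0.206 and 0.302).

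*Lox*, which encodes the lysyl oxidase that cross-links collagen and elastin, lay lowest in Ept2 and highest in Ept6. The signals were 180.5, 314 and 224 in Ept2, 595, 435 and 628 in Ept6, 402, 462 and 428 in Ept1, and 241, 371 and 379.7 in Ept9. Ept2 and Ept6 did not overlap, while Ept1 and Ept9 lay between or within them. Against the other 3 lines the log2 change was -0.82 ± 0.18 in Ept2 (SE, limma adjusted p = 0.0777) and 0.74 ± 0.18 in Ept6 (SE, limma adjusted p = 0.191), and a second probe set gave -0.66 and 0.58. With the *Gapdh* difference as a covariate these became 0.13 and -0.00.

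Of the small proteoglycans that bind collagen fibrils, *Dcn* and *Lum* had their highest means in Ept2 and *Bgn* in Ept9. *Dcn* (decorin) was 717, 389 and 468 in Ept2, 323, 273 and 250.2 in Ept1, 357, 417 and 319 in Ept6, and 304, 264 and 326 in Ept9, so that 1 Ept6 array reached above the lowest Ept2 array. The change of 0.68 ± 0.16 (SE) did not pass (limma adjusted p = 0.101). *Lum* (lumican) was 189, 91.8 and 153.5 in Ept2 against 38.2 to 128 elsewhere, with a change of 0.82 ± 0.30 (SE, limma adjusted p = 0.242). *Bgn* (biglycan, 156 to 371), *Fn1* (fibronectin, 66.9 to 169) and *Sparc* (a collagen-binding glycoprotein on chromosome 10, 2818 to 4683) had no unadjusted p under 0.05 in any line.

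**Figure D5:**
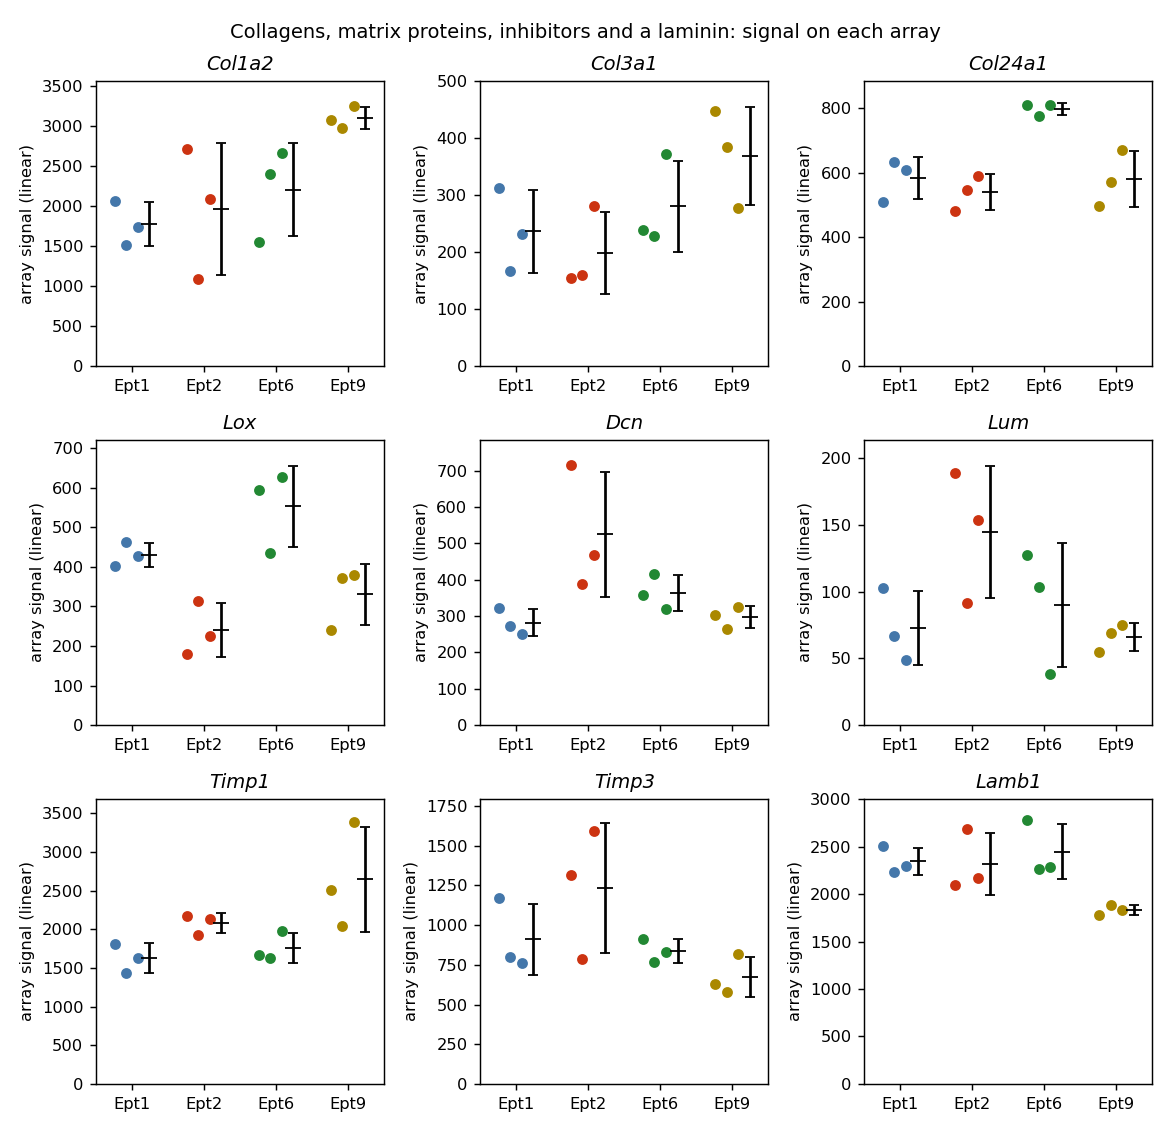
Array signal (linear) of *Col1a2*, *Col3a1*, *Col24a1*, *Lox*, *Dcn*, *Lum*, *Timp1*, *Timp3* and *Lamb1* by line, on separate vertical scales that start at 0, with single arrays as points and the mean and SD beside them. The Ept9 arrays of *Col1a2* (2979 to 3258) and the Ept6 arrays of *Col24a1* (778 to 811) lie above all others and the Ept9 arrays of *Lamb1* (1777 to 1885) below, while in the other 6 genes no line stands outside all 9 others.

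Among the proteinases, *Mmp14*, a membrane-anchored collagenase that activates pro-MMP2, was the steadiest of the tested matrix genes. Its 12 arrays ran from 383 to 482, a 1.26-fold range. *Mmp2* (gelatinase A) ran from 54.0 to 123. Over the arrays its log2 values and those of *Timp2* had r = 0.56 (permutation p = 0.0604, adjusted 0.151) and rho = 0.48 (permutation p = 0.121, adjusted 0.152), with r = 0.57 without the 2 farthest arrays and 0.40 with line means subtracted. The lowest r under any alternative setting was 0.04. A second *Mmp2* probe set, too dim to test, had a log2 change of -0.56 in Ept2, where the brightest gave 0.30. *Mmp23* was 303, 302 and 402 in Ept6 against 171 to 289 on the 9 others, and the change of 0.50 ± 0.14 (SE) did not pass (limma adjusted p = 0.258).

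*Mmp12*, the macrophage elastase, had the widest range, from 30.3 on Ept2 replicate 1 to 1249 on Ept9 replicate 1. Its other arrays lay between 158 and 487, so that these extremes came from single arrays, and it had no unadjusted p under 0.05. *Adamts1*, an aggrecan-cleaving protease, was 238, 155 and 214 in Ept6 and overlapped the other lines, with a log2 change of 0.68 ± 0.26 (SE, limma adjusted p = 0.414). *Adamts12* was 89.0, 90.4 and 80.9 in Ept2 against 51.5 to 86.8 elsewhere, with a change of 0.40 ± 0.09 (SE, limma adjusted p = 0.0779).

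Of the other inhibitors, *Timp1*, which is induced by growth factors and cytokines, was 2503, 2049 and 3384.5 in Ept9. The Ept2 arrays (2172, 1929.8 and 2138) reached into that range, and the log2 change in Ept9 was 0.52 ± 0.14 (SE, limma adjusted p = 0.166). *Timp3*, which binds to the matrix itself, was 1317, 787 and 1591 in Ept2 and 630.5, 577 and 817 in Ept9. The changes of 0.57 ± 0.20 and -0.51 ± 0.20 (SE) were not called (limma adjusted p = 0.233 and 0.386).

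In Ept9, where *Col1a2*, *Col3a1* and *Timp1* had their highest means, markers of fibroblasts and mural cells were also high. All 6 tested had a change above 0 (median 0.28, from 0.008 to 2.06), 3 at an unadjusted p under 0.05. Only *Des*, which encodes the desmin of pericytes and muscle, was called (0.78, limma adjusted p = 0.0257). The marker with the largest change was not. The summed signal of the 12 measured was 9693 to 11633 in Ept9 and 6500 to 9324 in the other lines, of which *Thy1* gave 4751 to 7722 over the 12 arrays, and none of the 12 was listed at 0. *Pdgfra*, *Pdgfrb*, *Cspg4*, *Tcf21*, *Twist1* and *Cnn1* were dim. The matrix genes did not move as 1 group in Ept9, where 28 of the 52 tested were above 0 and 24 below. Among those below were *Lum* (-0.42), *Dcn* (-0.31) and *Timp3* (-0.51), none of them called. The part of these cells in the matrix values of Ept9 was not tested.

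The 39 dim genes held 4 whose 3 arrays of a line lay outside the 9 others (*Adamts6* and *Lama2* in Ept1, *Mmp19* in Ept2, *Col14a1* in Ept9, named after their values were seen), beside 3.73% of all dim probe sets. *Col14a1*, a fibril-associated collagen, was 6.8, 12.4 and 17.3 in Ept9. In Ept1 it was 66.1, 87.6 and 61.8, in Ept2 44.8, 61.6 and 57.9, and in Ept6 66.7, 67.1 and 58.6. The gap between Ept9 and the lowest of the 9 others was wider than the spread within any line. A second dim probe set of *Col14a1* did not show this, with 8.2, 12.1 and 43.7 in Ept9 overlapping the others (13.0 to 112.3) and a log2 change of -0.90. When no probe set was left out as dim, *Col14a1* was the only matrix gene called in Ept9 (log2 change -1.50, limma adjusted p = 0.00414, 0.0934% of probe sets called), and a change this near background is understated by the added 16. *Col14a1* lies on chromosome 7, on which none of the 4 lines carries its segment.

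The genes around these in matrix biology were read from 4 lists. None of the 16 tested genes of collagen biosynthesis was called in any line. *P4ha1* and *P4ha2*, prolyl hydroxylase subunits, had log2 changes of -0.30 and -0.31 in Ept2 (limma adjusted p = 0.122 and 0.137), and *Pcolce*, the enhancer of procollagen cleavage, 0.38 in Ept9 (limma adjusted p = 0.148). Of 16 matrix receptors and 13 genes of protease control and TGF-beta none was called. The integrin subunit gene *Itgav* had a change of 0.31 in Ept2 (limma adjusted p = 0.104) and *Itga6*, of a laminin receptor, 0.44 in Ept9 (limma adjusted p = 0.107). Of 18 other matrix proteins none was called, but 15 were above 0 in Ept2 with a median of 0.21, led by *Fmod* (fibromodulin, 0.92, limma adjusted p = 0.0809).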

How the data were processed

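RNA of the anterior pituitary was measured on 12 Affymetrix arrays, 3 for each congenic line, grouped by sample title. The deposited values are linear intensity values (signals) for 31099 probe sets, which the authors scaled to a trimmed mean of about 500.2 on every array (trimming 2% at each end). No source used here names the software or the background correction. From the deposited intensities log2(signal + 16) was computed, 57 control probe sets and 12435 dim ones were dropped, and 18607 were tested. A probe set was dim where its mean log2(signal + 16) fell below the 40th percentile, which corresponds to a signal of 65.2. The design had named the mean signal, so the same percentile of the mean linear signal was added as an alternative after seeing the data. Fold changes on this scale understate the change of dim genes.

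The lines were tested with limma (version 3.58.1, R 4.3.3, lmFit and eBayes): an F test among the lines and each line against the mean of the other 3, with Benjamini-Hochberg adjustment over all probe sets tested and a threshold of 0.05. Correlations over the 12 arrays used two-sided permutation tests with 100000 resamples (SciPy 1.17.1). The number of arrays limits the precision. Gene names came from the platform annotation (1 symbol for 20832 probe sets, several for 436, none for 9831), and the brightest probe set stood for a gene. Chromosomes, gene order and promoters came from RefSeq for GRCr8, in which all 91 matrix genes were found by gene ID.

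The matrix genes, the other gene lists and the tests were chosen with earlier results of these data known. Named genes were those past the threshold, up to 3 per line and direction whose arrays did not overlap the others, and a list of textbook genes. *Col8a1*, *Col9a2*, *Adamts12*, *Mmp12*, the other dim genes and the single genes of other lists were named after their values were seen. Alternatives were other pseudocounts (1 and 64), quantile normalization, median centring, array weights, an eBayes trend, no filter or one at the 60th percentile, a block for the replicate number, probe sets averaged per gene, the *Gapdh* 3′ to 5′ difference in the model, each array left out and a test against each other line.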

Additional observations from a re-analysis of the deposited data

How the results depend on the processing

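The 3 matrix genes called in Ept2 became 0 with no filter, with the *Gapdh* covariate, and when each other line had to differ separately. They also became 0 with the mean of all probe sets, where *Lama5* was not tested. Array weights left 1 (*Mmp24*) and median centring 2 (without *Timp2*). The filter at the 60th percentile gave 4 (*Mmp24*, *Timp2*, *Lox* and *Dcn*, with *Lama5* not tested). An eBayes trend gave 5 (with *Lox* and *Dcn*), and the count ran from 0 to 2 with each array left out. The 0 called among the 4 lines became 1 with a pseudocount of 64 (*Lama5*), 1 with no filter (*Col14a1*), 3 at the 60th percentile (*Lox*, *Mmp24*, *Timp2*) and 4 with an eBayes trend, and 0 to 1 with each array left out (*Adamts12* without Ept1 replicate 3). In Ept1 the range was 0 to 1 (*Col6a1* without Ept1 replicate 2), in Ept6 an eBayes trend gave 1 (*Col24a1*), and in Ept9 no filter gave 1 (*Col14a1*) and an eBayes trend 3 (*Lamb1*, *Timp1*, *Timp2*). The adjusted p in Ept2 ran from 0.0199 to 0.454 for *Lama5*, called in 10 of 22 alternatives, from 0.00481 to 0.983 for *Mmp24*, in 9 of 24, and from 0.00213 to 0.562 for *Timp2*, in 6 of 24. With the filter on the mean linear signal, chosen after seeing the data, 51 matrix genes were tested and the same 3 were called in Ept2 (limma adjusted p = 0.0340, 0.0340 and 0.0456), with none called in the other comparisons.

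The replicate number did not pair the samples: deviations of same-numbered arrays correlated at -0.14 to 0.08, and those of other arrays at -0.10 to 0.11. With it as a replicate block, 1 matrix gene (*Col9a2*, adjusted p = 0.0412) was called in Ept2, and 50 probe sets in place of 149. Signs turned for *Col5a1* (0.018) and *Mmp24* (-0.0057) in Ept2 with the mean of all probe sets, and for *Lox* with the *Gapdh* covariate (0.13 in Ept2 and -0.0021 in Ept6), and r of *Col1a1* with *Col3a1* became -0.16 with the mean of all probe sets. Leaving out an array moved r of *Col1a1* with *Col1a2* between 0.11 and 0.74, with 1 adjusted p under 0.05 (0.0278). Of 962 alternative values, for 41 changes of single genes in a line, 903 kept their direction and side of the threshold. Most of the 41 were not called to begin with, so this count says little about the calls. The 3 called changes kept both in 10 of 22 (*Lama5*), 9 of 24 (*Mmp24*) and 6 of 24 (*Timp2*) alternatives. The causes were not tested. The number of arrays limits what could be called, and dim genes such as *Col14a1* lie near background.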
